A study of Mus musculus with 12 samples.

Results

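Toll-like receptors and the proteins that bring bacterial endotoxin to them were followed in mouse lung through a named set of 10 genes: the endotoxin co-receptors Cd14 and Ly96, the receptors Tlr1, Tlr2, Tlr4, Tlr6 and Tlr7, the adaptor Myd88, the inhibitory kinase Irak3 and the cytosolic sensor Nod2. A probe set was taken as a gene's when the platform annotation gave it that symbol alone, and a gene with several was represented by the one with the highest mean log2 signal over the 12 arrays. This named 9 of the 10 genes, out of 18193 genes with such a probe set. Nod2 was matched to none and was not analysed here.

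The samples were whole lungs taken 8 h after surgery from mice of 8 to 10 weeks, with 3 arrays in each of 4 groups. Knockout-labelled mice (PPTA, now named Tac1, which encodes the precursor of substance P) had either cecal ligation with puncture (CLP) or a sham operation, as did wild-type Balb/c mice. CLP opens the gut into the abdomen and is a common model of abdominal sepsis. The labels name a strain only for the wild-type mice, so strain and genotype cannot be told apart. Whether the triplicates are separate animals is not stated, so the spread behind each p-value is that of these samples and may be technical.

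Endotoxin, the lipopolysaccharide of Gram-negative bacteria, is passed by Cd14 to Ly96 (MD-2), which holds it against Tlr4. Tlr2 pairs with Tlr1 or Tlr6 to bind bacterial lipopeptides, and Tlr7 binds single-stranded RNA in endosomes. All of these receptors signal through Myd88 to NF-kappaB, and Irak3 (IRAK-M), an induced member of the kinase family that Myd88 recruits, restrains this signal. In lung, macrophages, monocytes and neutrophils are known as carriers of these proteins.

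The arrays differed in ways that touch the results. The most direct check of the genotype label went against it: Tac1 gave a signal of 442, 337 and 462 on the knockout-labelled CLP arrays and 379, 441 and 530.3 on the knockout-labelled sham arrays, against 16.1, 3.95 and 12.4 on the wild-type CLP arrays and 5.25, 8.34 and 2.80 on the wild-type sham arrays (1416783_at). A second Tac1 probe set read 1.26 to 16.0 on all arrays, and where either lies relative to the deleted part of the gene was not analysed here. Directions between the genotypes are therefore those of the labels. The knockout-labelled sham array 3 stood apart from its group, with 646 probe sets at least 2-fold above and 758 at least 2-fold below both of its fellows. Knockout-labelled CLP arrays 3 (202 and 471) and 1 (92 and 329) stood apart less, and the wild-type arrays reached 33 and 78 at most. Its values are named below where they matter. The lung label was checked with 6 lung epithelial markers (Sftpc, Sftpb, Sftpa1, Sftpd, Ager and Scgb1a1, the last a marker of airway cells). All were above the dimness filter. Their summed signals were 49028 to 55928 and 48493 to 55253 on the knockout-labelled CLP and sham arrays. On the wild-type CLP and sham arrays they were 57388 to 59237 and 56475 to 60012. Of these 6, 3 were called lower in knockout-labelled than in wild-type lungs after CLP, beside 16.9% of all probe sets tested. After sham 2 of the 6 were called lower, beside 3.86%. The tissue markers themselves thus differed between the groups.

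The counts of calls after CLP differed between the genotypes, but the test of the difference itself called 1 gene, Myd88. In knockout-labelled lungs 8 of the 9 measured genes were higher after CLP than after sham at an adjusted p under 0.05, where 10.4% of all tested probe sets were called higher (18.8% lower, 29.2% in either direction). The ninth, Tlr4, did not pass. With 1 array left out the count was 7 to 9. It was 9 without knockout-labelled sham array 3 or CLP array 1, and 7 without knockout-labelled sham array 2 or CLP array 3. When only these 2 groups were fitted it was 6. In wild-type lungs Cd14, Tlr2 and Tlr6 were higher, 3 of 9, where 0.814% of probe sets were called higher (0.134% lower, 0.948% in either direction). No measured gene was called lower in either genotype. The median log2 difference of the 9 genes was 1.20 in knockout-labelled lungs, beside -0.12 for all probe sets tested, and 0.61 in wild-type lungs, beside -0.05. Centring each array on its median moved the median of all probe sets in knockout-labelled lungs to 0.10 and turned the split of calls there to 5314 higher and 2236 lower, against 2553 and 4619 as reported. The arrays after CLP lay above those after sham without overlap for 8 of the 9 genes in knockout-labelled lungs, where this held for 3206 of 24574 probe sets (13%), and for 7 of the 9 in wild-type lungs, where it held for 9.35%. No called gene of the 9 changed direction under either other scaling.

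In whole lung, more or fewer cells of a type and more or less RNA per cell cannot be told apart, and the marker genes of the cells that carry these receptors moved with the same comparisons. The summed signal of 11 neutrophil markers was 45309 to 50351 after CLP and 10972 to 26964 after sham in knockout-labelled lungs, and 36173 to 40391 after CLP and 9882 to 16385 after sham in wild-type lungs. Of these 11, 9 were called higher after CLP in knockout-labelled lungs and 8 in wild-type lungs. Beside these and the marker counts below, 10.4% of all probe sets were called higher in knockout-labelled lungs and 0.814% in wild-type lungs. The summed signal of 10 alveolar macrophage markers was 9825 to 10647 after CLP in knockout-labelled lungs, against 2779.6, 3313 and 10209 on sham arrays 1, 2 and 3, and 3058 to 3331 after CLP and 3008 to 3255 after sham in wild-type lungs. Of these 10, 6 were called higher after CLP in knockout-labelled lungs and 0 in wild-type lungs. Of 8 monocyte markers, 4 were called higher and 1 lower after CLP in knockout-labelled lungs, and 0 in wild-type lungs, with sums of 13890.1 to 17473 after CLP and 12370.1 to 14746 after sham against 12602 to 12832 and 11327 to 11878. Markers of other tissue moved as well. All 4 cardiac muscle markers were called lower after CLP in knockout-labelled lungs, with sums of 2979.8 to 5644 after CLP and 7119 to 11078 after sham, against 2263 to 2821 and 2200.1 to 2652 in wild-type lungs, where 0 were called. Of 6 endothelial markers 3 were called lower after CLP in knockout-labelled lungs and 0 in wild-type lungs. Of all probe sets 18.8% were called lower in knockout-labelled lungs and 0.134% in wild-type lungs. No tested marker was at 0 on any array. The part of these cells in the results on the sensing genes was not tested.

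**Figure D1:**
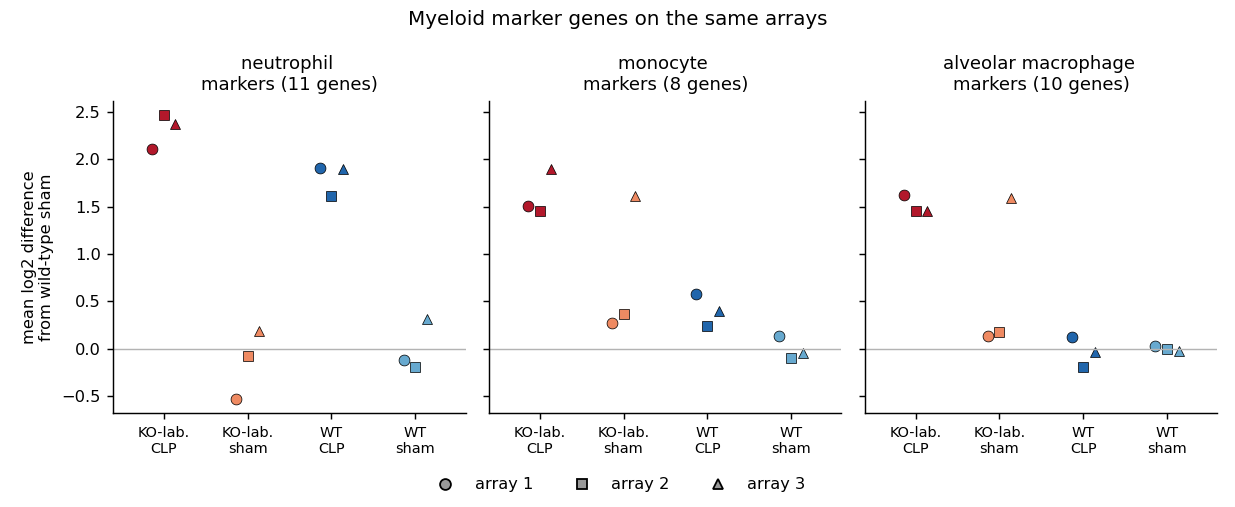
Mean log2 difference from the wild-type sham mean (vertical axis) of the tested neutrophil, monocyte and alveolar macrophage markers, 1 point per array in the 4 groups of genotype label and surgery (KO-lab., knockout-labelled). Neutrophil markers are at 1.61 or above on all CLP arrays, while alveolar macrophage markers are at 1.45 or above on the knockout-labelled CLP arrays and on knockout-labelled sham array 3 and at 0.18 or below on all others. Monocyte markers are also at 1.45 or above on those knockout-labelled arrays, and at 0.582 or below on all others.

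Cd14, the glycoprotein that binds endotoxin at the cell surface, had the largest response of the 9 genes in both genotypes. Its signal was 4362, 7679.8 and 8282 in knockout-labelled CLP lungs and 573, 532 and 567 in knockout-labelled sham lungs, against 2468, 1559.6 and 2530.1 in wild-type CLP lungs and 262, 297 and 306 in wild-type sham lungs. The 4 groups did not overlap, in the order knockout-labelled CLP, wild-type CLP, knockout-labelled sham and wild-type sham. Log2 differences here and below are of the signal plus a pseudocount of 3.47, which understates the change of dim genes. CLP exceeded sham by 3.54 ± 0.22 (SE) in knockout-labelled lungs, or 11.6-fold (limma, adjusted p = 4.6e-06), and by 2.88 ± 0.22, or 7.35-fold, in wild-type lungs (adjusted p = 4.6e-05). The difference of these 2 responses was 0.66 ± 0.31 and was not called (adjusted p = 0.23). It was called in 1 of 12 runs that left out 1 array, without knockout-labelled CLP array 1 (0.95, adjusted p = 0.026). In the other runs the adjusted p reached 0.45 (without wild-type CLP array 2).

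Ly96, the secreted protein that holds endotoxin in the Tlr4 complex, was a dimmer signal, close to the array medians of 31.1 to 38.4 in wild-type sham lungs. It read 96.1, 137 and 178 in knockout-labelled CLP lungs and 58.0, 35.5 and 84.0 in knockout-labelled sham lungs, against 59.0, 53.5 and 42.3 in wild-type CLP lungs and 39.7, 35.4 and 36.7 in wild-type sham lungs. The knockout-labelled CLP arrays were above all others, and the knockout-labelled sham arrays overlapped both wild-type groups. The CLP response was 1.20 ± 0.28 in knockout-labelled lungs (adjusted p = 0.0078, and 0.057 when only these 2 groups were fitted). In wild-type lungs it was 0.42 ± 0.28 and was not called (adjusted p = 0.80).

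Tlr4, the endotoxin receptor itself, showed a difference between the genotype labels and no called response to CLP. Its representative probe set read 162, 171 and 217 in knockout-labelled CLP lungs and 153, 101 and 142 in knockout-labelled sham lungs, against 83.9, 82.5 and 71.9 in wild-type CLP lungs and 82.6, 91.2 and 83.9 in wild-type sham lungs. All 6 knockout-labelled arrays were above all 6 wild-type arrays, and the CLP and sham arrays of the wild type overlapped. The CLP response in knockout-labelled lungs was 0.47 ± 0.17 (adjusted p = 0.053). With 1 array left out it passed the threshold in 3 of 12 runs. These were without knockout-labelled CLP array 1 (0.56, adjusted p = 0.041), sham array 1 (0.59, adjusted p = 0.040) or sham array 3 (0.54, adjusted p = 0.040). In the runs without a call the adjusted p reached 0.21 (without knockout-labelled sham array 2). It also passed under quantile normalization (0.59, adjusted p = 0.023), median centring (0.70, adjusted p = 0.0080) or a 50% pseudocount (0.44, adjusted p = 0.0499). Under the remaining settings the adjusted p reached 0.33. In wild-type lungs the CLP response was -0.11 ± 0.17 (adjusted p = 0.96).

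The other Tlr4 probe sets did not share this difference. Probe set 1418162_at read 75.9, 79.9 and 108 in knockout-labelled CLP lungs and 64.0, 82.4 and 138 in knockout-labelled sham lungs, against 117, 95.3 and 92.0 in wild-type CLP lungs and 108, 112 and 97.4 in wild-type sham lungs. These groups overlapped, and after CLP the difference between genotype labels was -0.21 ± 0.24 (adjusted p = 0.54). A further probe set, 1442827_at, differed by 0.27 ± 0.31 (adjusted p = 0.55), and 1430695_at was below the dimness filter. The statements on Tlr4 therefore hold for 1 of its 3 tested probe sets, 1418163_at.

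**Figure D2:**
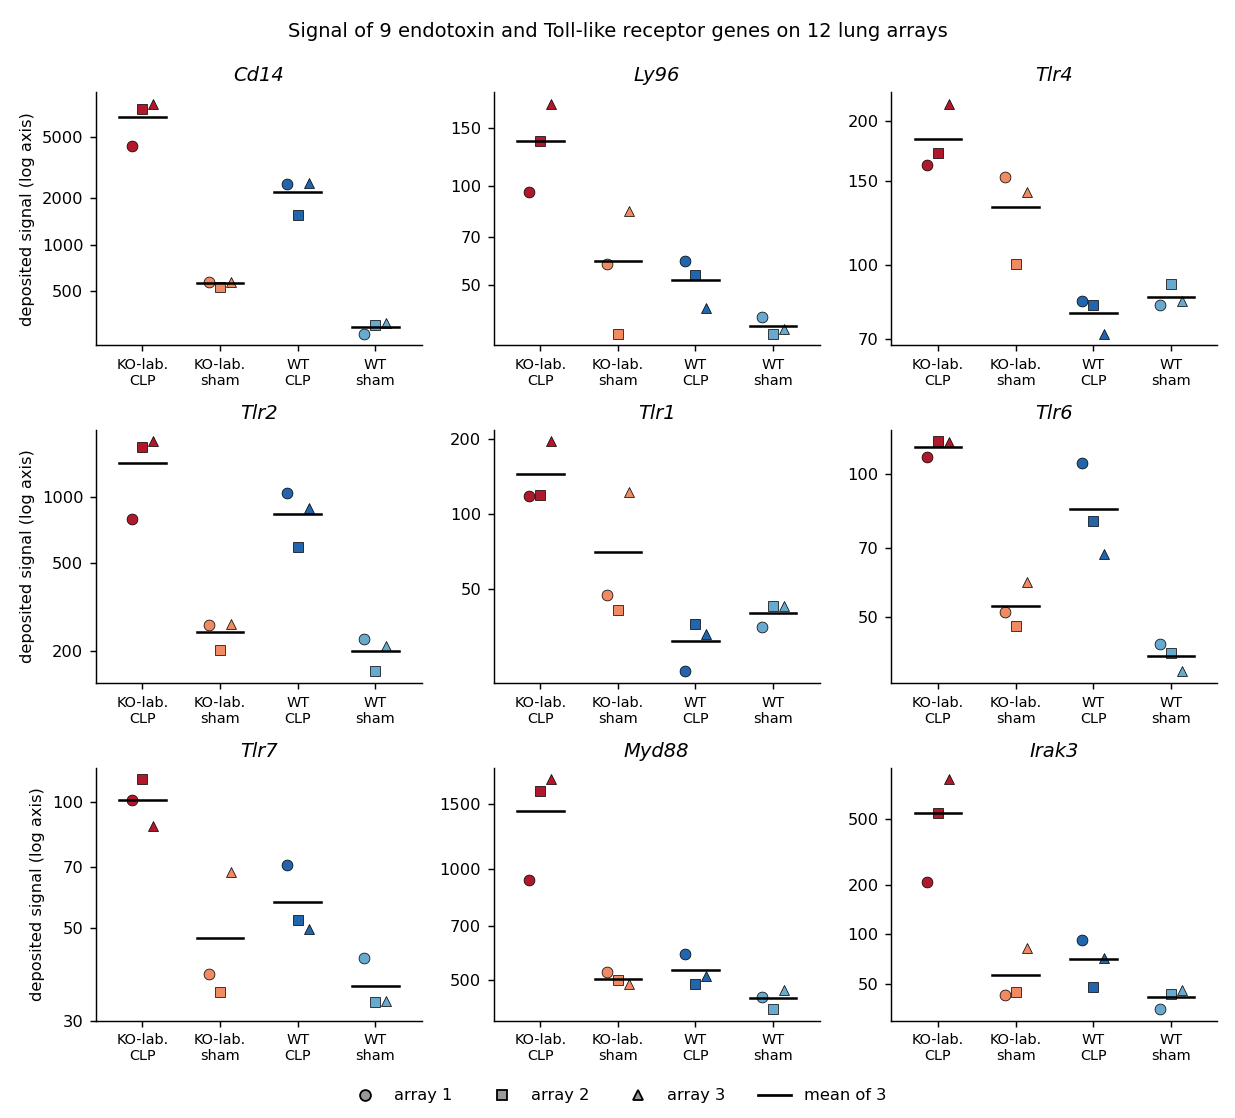
Deposited signal (log axis, with a scale of its own in each panel) of the 9 measured genes on the 12 arrays, in the order knockout-labelled (KO-lab.) CLP, knockout-labelled sham, wild-type (WT) CLP and wild-type sham, with a marker shape for each array number and a bar at the mean of 3. Myd88 and Irak3 stand out on the knockout-labelled CLP arrays, where Myd88 is at 933 or more, against at most 588 elsewhere, while Cd14 and Tlr2 are also raised on the wild-type CLP arrays.

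Tlr2, the receptor for bacterial lipopeptides, rose in both genotypes and Tlr6 with it. Tlr1, the other partner of Tlr2, rose in knockout-labelled lungs and was not called in the wild type, and the difference between these 2 responses of Tlr1 was not called. Tlr1 and Tlr6 are neighbouring genes in the RefSeq annotation of assembly GRCm38.p6. The promoters of Tlr2 and Tlr1 are shown as the 250 bases before the outermost RefSeq start (GRCm38.p6, minus strand), so that these 2 receptor partners can be read side by side. Capitals mark matches on either strand to the NF-kappaB consensus in Tlr2, where 3 matches overlap 163 to 173 bases before the start, and to the PU.1 motif GAGGAAGT in Tlr1, 16 to 23 bases before the start.
Tlr2 chr3:83841609-83841858: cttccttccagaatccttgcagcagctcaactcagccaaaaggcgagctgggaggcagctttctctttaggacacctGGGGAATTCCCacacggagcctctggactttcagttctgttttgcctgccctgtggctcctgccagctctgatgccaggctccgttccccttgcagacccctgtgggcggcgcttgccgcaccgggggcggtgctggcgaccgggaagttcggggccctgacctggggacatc
Tlr1 chr5:64933559-64933808: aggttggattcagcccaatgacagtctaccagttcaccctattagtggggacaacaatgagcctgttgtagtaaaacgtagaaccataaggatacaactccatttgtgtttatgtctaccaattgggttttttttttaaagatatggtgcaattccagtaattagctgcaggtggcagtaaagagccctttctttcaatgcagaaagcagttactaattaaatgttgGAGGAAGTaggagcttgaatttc
An NF-kappaB match was held by 7.25% of the 32851 promoter windows and a PU.1 match by 2.44%. A match describes the letters only.

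Tlr2 read 796, 1687 and 1783 in knockout-labelled CLP lungs and 264, 204 and 266 in knockout-labelled sham lungs, against 1041, 593 and 888 in wild-type CLP lungs and 228, 162 and 212 in wild-type sham lungs. All CLP arrays were above all sham arrays, and within each surgery the 2 genotypes overlapped. Tlr2 responded to CLP by 2.45 ± 0.28 in knockout-labelled lungs, or 5.45-fold (adjusted p = 1.6e-04), and 2.02 ± 0.28 in wild-type lungs, or 4.06-fold (adjusted p = 0.0053). These differed by 0.42 ± 0.40, which was not called (adjusted p = 0.57).

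Tlr6 read 109, 117 and 117 in knockout-labelled CLP lungs and 51.2, 47.8 and 59.2 in knockout-labelled sham lungs, against 105, 79.5 and 67.9 in wild-type CLP lungs and 43.8, 41.9 and 38.3 in wild-type sham lungs. The 4 groups did not overlap. The CLP response was 1.07 ± 0.17 in knockout-labelled lungs (adjusted p = 0.0010) and 0.95 ± 0.17 in wild-type lungs (adjusted p = 0.021), and the difference of the 2 was 0.12 ± 0.24 (adjusted p = 0.80). The wild-type call was lost without wild-type CLP array 1 (0.78, adjusted p = 0.12) or 2 (0.98, adjusted p = 0.073) and without wild-type sham array 1 (0.99, adjusted p = 0.081), 2 (0.96, adjusted p = 0.074) or 3 (0.90, adjusted p = 0.11).

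Tlr1 read 118, 119 and 195 in knockout-labelled CLP lungs and 47.6, 41.4 and 123 in knockout-labelled sham lungs, against 23.5, 36.4 and 33.1 in wild-type CLP lungs and 35.2, 42.7 and 42.9 in wild-type sham lungs. The value of 123 belongs to knockout-labelled sham array 3, lies among the CLP values and was accompanied by the alveolar macrophage markers named above. Monocyte markers were raised on it too, at a mean log2 difference of 1.61 from wild-type sham, against 0.28 and 0.36 on sham arrays 1 and 2. The wild-type arrays were near the array medians. The CLP response was 1.12 ± 0.34 in knockout-labelled lungs (adjusted p = 0.027), and 1.58 (adjusted p = 6.3e-04) without sham array 3. The call was lost without knockout-labelled CLP array 3 (0.88, adjusted p = 0.10) and without sham array 1 (0.93, adjusted p = 0.095) or 2 (0.84, adjusted p = 0.11), and when only the 2 groups were fitted (adjusted p = 0.11). In wild-type lungs it was -0.36 ± 0.34 (adjusted p = 0.89). The difference of the 2 responses was 1.48 ± 0.48 and was not called (adjusted p = 0.099). It was called in 1 of 12 runs that left out 1 array, without knockout-labelled sham array 3 (1.94, adjusted p = 0.0044). In the other runs the adjusted p reached 0.20 (without knockout-labelled sham array 2).

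Tlr7, the endosomal receptor for single-stranded RNA, read 101, 114 and 87.5 in knockout-labelled CLP lungs and 38.7, 35.2 and 68.1 in knockout-labelled sham lungs, against 70.7, 52.3 and 49.7 in wild-type CLP lungs and 42.3, 33.2 and 33.4 in wild-type sham lungs. Here the knockout-labelled CLP arrays were the highest, and sham array 3 of the same label lay among the wild-type CLP arrays. The CLP response was 1.08 ± 0.24 in knockout-labelled lungs (adjusted p = 0.0056) and 0.61 ± 0.24 in wild-type lungs, which was not called (adjusted p = 0.44). A dimmer probe set of Tlr7, 1449640_at, read 11.7, 33.9 and 14.7 in knockout-labelled CLP lungs, against 43.2, 45.9 and 37.2 in wild-type CLP lungs, the opposite order. Its CLP response in knockout-labelled lungs was 0.26 ± 0.38 (adjusted p = 0.64). A further probe set was below the dimness filter.

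Myd88, the adaptor shared by these receptors, was the 1 gene of the 9 whose response to CLP was called as different between the genotypes, where 1.69% of probe sets were called in that direction (2.36% in the other, 4.05% in either). Irak3, which restrains the same signal, had the largest difference in response but did not pass. With 1 array left out the count was 0 to 3. It was 0 without any 1 wild-type array, without knockout-labelled CLP array 2 and without knockout-labelled sham array 1 or 2. Without knockout-labelled CLP array 3 it was 1. Without knockout-labelled sham array 3 it was 3 of 9 (Tlr1, Myd88 and Irak3), and without knockout-labelled CLP array 1 also 3 (Cd14, Myd88 and Irak3). The promoters of Myd88 and Irak3 are shown for the 250 bases before the outermost RefSeq start (GRCm38.p6, minus strand). Capitals mark the interferon-stimulated response element core GAAANNGAAA, found in Myd88 at 31 to 40 bases before the start.
Myd88 chr9:119340019-119340268: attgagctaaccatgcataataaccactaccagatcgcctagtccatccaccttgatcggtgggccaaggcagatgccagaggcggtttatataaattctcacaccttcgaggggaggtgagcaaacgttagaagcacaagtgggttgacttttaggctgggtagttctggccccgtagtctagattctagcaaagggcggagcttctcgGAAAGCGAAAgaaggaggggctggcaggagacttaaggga
Irak3 chr10:120202131-120202380: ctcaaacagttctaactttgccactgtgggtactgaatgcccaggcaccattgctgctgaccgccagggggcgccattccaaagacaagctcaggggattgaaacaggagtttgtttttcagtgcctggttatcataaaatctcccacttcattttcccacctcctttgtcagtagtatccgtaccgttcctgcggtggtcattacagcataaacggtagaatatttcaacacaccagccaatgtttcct
That core was held by 2.98% of all promoter windows on either strand, and also by an inner start of Tlr6. The AP-1 motif TGANTCA, held by 6.75%, had no match in the 8 windows of the 5 measured genes that the promoter table lists.

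Myd88 read 933, 1628 and 1756 in knockout-labelled CLP lungs and 523, 499.9 and 486 in knockout-labelled sham lungs, against 588, 488 and 512 in wild-type CLP lungs and 449, 416 and 469 in wild-type sham lungs. The knockout-labelled CLP arrays were above all others, and the wild-type CLP arrays overlapped the knockout-labelled sham arrays. Myd88 responded to CLP by 1.46 ± 0.19 in knockout-labelled lungs, or 2.75-fold (adjusted p = 2.9e-04), and 0.25 ± 0.19 in wild-type lungs, which was not called (adjusted p = 0.84). The responses differed by 1.21 ± 0.26 (adjusted p = 0.030). Leaving out 1 array at a time, this call was kept without knockout-labelled CLP array 1 or 3 or knockout-labelled sham array 3. It was lost without any 1 of the 9 others, with an adjusted p of 0.054 (without knockout-labelled sham array 1) to 0.091 (without wild-type CLP array 2) and differences of 1.09 to 1.29.

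Irak3 read 207, 545 and 877 in knockout-labelled CLP lungs and 42.8, 44.8 and 82.3 in knockout-labelled sham lungs, against 92.8, 47.7 and 72.0 in wild-type CLP lungs and 35.1, 43.5 and 45.5 in wild-type sham lungs. The knockout-labelled CLP arrays were above all others but spread widely, with array 1 the lowest. Irak3 responded to CLP by 3.02 ± 0.43 in knockout-labelled lungs, or 8.10-fold (adjusted p = 5.2e-04), and 0.69 ± 0.43 in wild-type lungs, which was not called (adjusted p = 0.77). The responses differed by 2.33 ± 0.60, just past the threshold on the side of no call (adjusted p = 0.0501). With 1 array left out, the difference was called in 2 of 12 runs. These were without knockout-labelled CLP array 1 (2.90, adjusted p = 0.0031) and without sham array 3 (2.61, adjusted p = 0.016). In the runs without a call the adjusted p reached 0.13 (without wild-type CLP array 2). The difference was also called under 6 other settings, with an adjusted p of 0.0010 (array weights) to 0.049 (a filter of 9 arrays). Under the remaining settings the adjusted p reached 0.076. The second Irak3 probe set, 1430704_at, gave responses of 2.57 ± 0.35 in knockout-labelled lungs (adjusted p = 4.0e-04) and 0.67 ± 0.35 in wild-type lungs (adjusted p = 0.66).

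**Figure D3:**
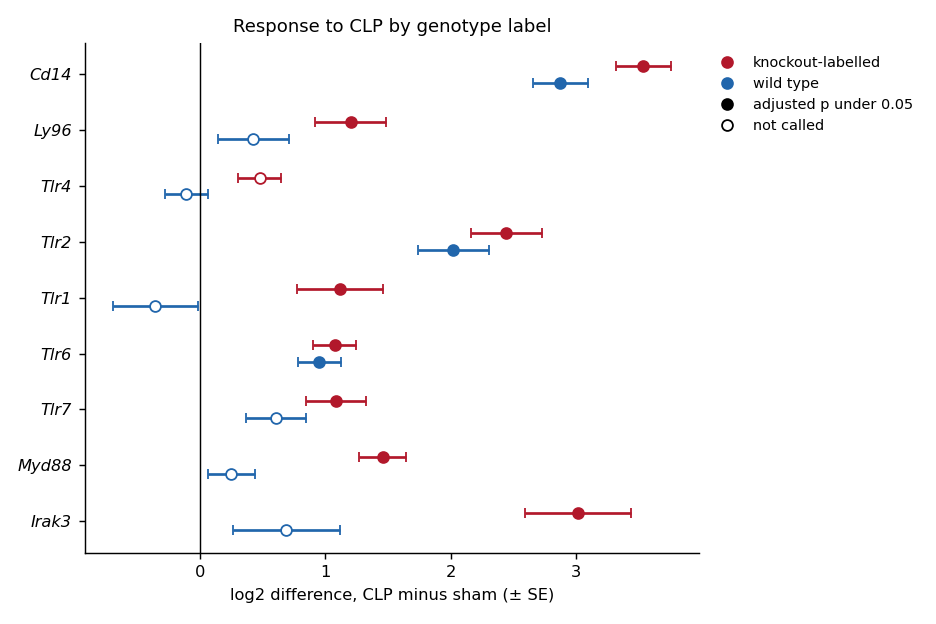
Log2 difference between CLP and sham (horizontal axis, ± SE from the limma fit, 3 arrays per group) for the 9 genes, with knockout-labelled lungs above wild-type lungs in each pair and filled points at an adjusted p under 0.05. The SE of a gene rests on 1 estimate of the spread shared by the 4 groups. Cd14 (3.54 and 2.88), Tlr2 (2.45 and 2.02) and Tlr6 (1.07 and 0.95) are called in both, and the widest gaps are those of Irak3 (3.02 and 0.69), Tlr1 (1.12 and -0.36) and Myd88 (1.46 and 0.25).

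After CLP, 7 of the 9 genes were higher in knockout-labelled than in wild-type lungs, where 12.6% of probe sets were called higher (16.9% lower, 29.5% in either direction). The arrays did not overlap for 8 of the 9, beside 20.6% of probe sets. The largest differences were those of Irak3 at 2.70 ± 0.43 (adjusted p = 7.2e-04), Tlr1 at 2.08 ± 0.34 (adjusted p = 9.5e-04) and Cd14 at 1.61 ± 0.22 (adjusted p = 3.0e-04). Myd88 differed by 1.39 ± 0.19 (adjusted p = 2.6e-04), Ly96 by 1.32 ± 0.28 (adjusted p = 0.0045) and Tlr4 by 1.16 ± 0.17 on its representative probe set (adjusted p = 4.6e-04). With the mean of its probe sets in its place, Tlr4 differed by 0.41 and was not called (adjusted p = 0.11). Alveolar macrophage markers moved with this comparison too: 8 of 10 were called higher in knockout-labelled CLP lungs, beside 4 of 8 monocyte markers and 3 of 11 neutrophil markers, with 1 neutrophil marker lower. Of 6 endothelial markers 3 were lower, and of 4 cardiac muscle markers 1 was higher. Their part in these differences was not tested.

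Tlr7 was also called after CLP, at 0.78 ± 0.24 (adjusted p = 0.027), but with the mean of its probe sets the difference was -0.14, and on 1449640_at it was -1.06 ± 0.38 (adjusted p = 0.051). The Tlr7 call was lost without knockout-labelled CLP array 1 (0.77, adjusted p = 0.053) or 2 (0.69, adjusted p = 0.090) and without wild-type CLP array 2 (0.72, adjusted p = 0.091) or 3 (0.69, adjusted p = 0.095). Tlr2 differed by 0.71 ± 0.28 (adjusted p = 0.079) and Tlr6 by 0.45 ± 0.17 (adjusted p = 0.068), neither called. With 1 array left out, each passed in 1 of 12 runs. Tlr2 passed without knockout-labelled CLP array 1 (1.08, adjusted p = 0.0035) and otherwise reached an adjusted p of 0.29 (without wild-type CLP array 2). Tlr6 passed without wild-type CLP array 1 (0.61, adjusted p = 0.027) and otherwise reached 0.25 (without wild-type CLP array 3). The median over the 9 genes was 1.32, beside -0.05 for all probe sets.

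After sham surgery, Cd14 was the 1 gene of the 9 called, at 0.95 ± 0.22 higher in knockout-labelled lungs (adjusted p = 0.019), where 4.48% of probe sets were called higher (3.86% lower, 8.34% in either direction). The Cd14 call was lost without knockout-labelled sham array 1 (0.92, adjusted p = 0.053) and without wild-type sham array 1 (0.88, adjusted p = 0.080), 2 (0.97, adjusted p = 0.059) or 3 (0.99, adjusted p = 0.054). In the same comparison 4 of 4 cardiac muscle markers, 2 of 8 monocyte markers and 1 of 10 alveolar macrophage markers were called higher and 2 of 11 neutrophil markers lower, and their part was not tested. Tlr4 differed by 0.58 ± 0.17 (adjusted p = 0.056). With 1 array left out it was called only without knockout-labelled sham array 2 (0.76, adjusted p = 0.016) or knockout-labelled CLP array 3 (0.58, adjusted p = 0.038). Without knockout-labelled sham array 3 its adjusted p was 0.11. The other 7 genes differed by 0.18 to 0.60, with no call. The sham arrays of Cd14, Tlr4, Tlr6 and Myd88 did not overlap between the genotypes, 4 of 9 genes where 15.3% of probe sets were higher without overlap. The comparisons after CLP and after sham share arrays with the CLP responses above. They are given side by side and not as separate evidence.

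**Figure D4:**
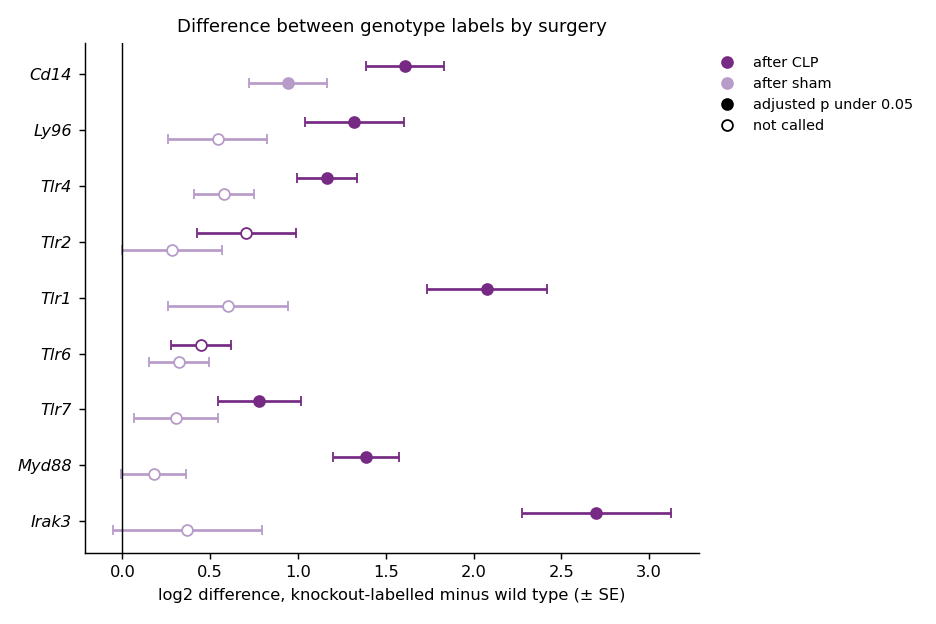
Log2 difference between knockout-labelled and wild-type lungs (horizontal axis, ± SE from the limma fit, 3 arrays per group) for the 9 genes, after CLP above and after sham below in each pair, with filled points at an adjusted p under 0.05. The SE of a gene rests on 1 estimate of the spread shared by the 4 groups. After CLP 7 genes are called and differences reach 2.70 (Irak3), while after sham Cd14 alone is called (0.95).

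The 9 genes did not share 1 profile over the 12 arrays, with the size of their changes included. With each gene's log2 values centred on their mean, the root mean square difference between 2 genes was smallest for Tlr6 and Tlr7 (0.224) and largest for Cd14 and Tlr4 (1.55). Cd14 and Tlr2 lay 0.650 apart and Ly96 and Myd88 0.301 apart. By the same measure, over 11858 other genes, Cd14 lay nearest to Samsn1 (0.323) and Sh2b2 (0.439), Tlr2 to Slfn2 (0.231) and Map3k8 (0.241), and Myd88 to Pim2 (0.139) and Sh3pxd2b (0.194). Irak3 lay nearest to Casp4 (0.268) and Serpinb2 (0.312), Tlr1 to Rassf2 (0.245) and Igkv4-68 (0.269), and Ly96 to Ptpn6 (0.179) and Bcl6 (0.182). Tlr6 lay nearest to Ptger4 (0.200) and Ikzf1 (0.204) and Tlr7 to Itgb2 (0.172) and Arhgap30 (0.207). These distances describe 12 arrays that share 4 groups. They are not scaled, so they hold the size of a gene's changes as well as their shape. The SD of the centred values was 1.76 for Cd14 and 1.43 for Irak3, against 0.56 for Tlr6 and 0.57 for Tlr7.

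Of 64 other genes of the pathway, 53 had a probe set and 48 passed the filter. After CLP in knockout-labelled lungs 20 of the 48 were called higher and 3 lower, 47.9% in either direction beside 29.2% of all probe sets (10.4% higher, 18.8% lower). The median log2 difference of the 48 was 0.26. In wild-type lungs 5 were called higher and 0 lower, 10.4% beside 0.948% of all probe sets, with a median of 0.10. After CLP 14 were higher and 5 lower in knockout-labelled than in wild-type lungs, 39.6% beside 29.5% of all probe sets. After sham 4 were higher and 1 lower, 10.4%, which is near the 8.34% of all probe sets. Ikbke is among the 20 and the 14 called higher, and it passed the filter only through the knockout-labelled CLP arrays. Its calls are therefore not independent of the filter. With a filter of 9 arrays, which drops Ikbke, 19 of 46 were higher and 3 lower after CLP in knockout-labelled lungs. Between the genotypes after CLP that filter gave 13 of 46 higher and 5 lower. The counts for the CLP response in knockout-labelled lungs depended on the fit, with 13 of 48 called in either direction when only the 2 groups were fitted. Without knockout-labelled CLP array 2 that count was 15. The wild-type count of 5 became 1 to 3 without any 1 wild-type array. The 19 calls between the genotypes after CLP became 12 without knockout-labelled CLP array 3 or wild-type CLP array 2, and the 5 after sham became 2 to 3 without any 1 wild-type sham array.

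Among the other receptors, 4 of which were tested, Tlr13, which detects bacterial ribosomal RNA, responded by 1.87 ± 0.31 in knockout-labelled lungs (adjusted p = 0.0012) and 1.86 ± 0.31 in wild-type lungs (adjusted p = 0.014). The wild-type call for Tlr13 was lost without wild-type CLP array 1 or 3 or wild-type sham array 2 or 3, with an adjusted p of up to 0.090. Tlr5, the flagellin receptor, was the 1 receptor called lower after CLP in knockout-labelled lungs. It read 37.9, 19.7 and 29.2 in knockout-labelled CLP lungs and 90.0, 73.6 and 53.4 in knockout-labelled sham lungs, against 53.8, 49.4 and 50.5 in wild-type CLP lungs and 41.1, 53.5 and 47.3 in wild-type sham lungs. The knockout-labelled CLP arrays were the lowest of all 12. Tlr5 differed between CLP and sham by -1.24 ± 0.24 in knockout-labelled lungs (adjusted p = 0.0028).

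Of 7 genes for ligand handling and receptor trafficking, Lbp, which transfers endotoxin to Cd14, and Pglyrp1, a peptidoglycan-binding protein of neutrophil granules, were called higher after CLP in knockout-labelled lungs. That share, 28.6%, is near the 29.2% of all probe sets called in either direction, of which 10.4% were higher. Lbp read 1555, 1387 and 2229 in knockout-labelled CLP lungs and 800.1, 958 and 818 in knockout-labelled sham lungs, against 773, 766 and 839.9 in wild-type CLP lungs and 684, 855 and 923 in wild-type sham lungs. All 3 knockout-labelled CLP arrays were above the others. Pglyrp1 read 208, 292 and 222 in knockout-labelled CLP lungs and 106, 133 and 125 in knockout-labelled sham lungs, against 443, 394 and 369.5 in wild-type CLP lungs and 101, 99.5 and 79.02 in wild-type sham lungs. It was highest in wild-type CLP lungs, whereas Cd14 was highest in knockout-labelled CLP lungs. Unc93b1, which escorts Toll-like receptors to endosomes, was higher in knockout-labelled than in wild-type lungs after sham by 0.62 ± 0.14 (adjusted p = 0.018), a call lost without wild-type sham array 1 or 2 (adjusted p up to 0.086). Ly86 (MD-1), the partner of Cd180, differed by 0.60 ± 0.18 there and was not called (adjusted p = 0.058).

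Of 3 adaptors 2 were called higher after CLP in knockout-labelled lungs, and of 13 kinases and ubiquitin ligases 5 were (38.5%), where 10.4% of all probe sets were called higher and 29.2% in either direction. In wild-type lungs the counts were 0 and 1, where 0.814% of probe sets were called higher. Tirap, which bridges Tlr2 and Tlr4 to Myd88, responded to CLP by 1.15 ± 0.18 in knockout-labelled lungs (adjusted p = 9.1e-04) and by 0.30 ± 0.18 in wild-type lungs (adjusted p = 0.76). Pik3ap1 (BCAP), an adaptor to phosphoinositide 3-kinase, responded by 2.14 ± 0.26 in knockout-labelled lungs (adjusted p = 1.9e-04) and 0.78 ± 0.26 in wild-type lungs (adjusted p = 0.29). The kinase Map3k8 (TPL2) responded by 2.84 ± 0.33 in knockout-labelled lungs (adjusted p = 1.7e-04) and 1.86 ± 0.33 in wild-type lungs (adjusted p = 0.019). Ikbke, an inducible kinase related to the IkappaB kinases, was chosen after its values were seen. It read 81.2, 219 and 549.8 in knockout-labelled CLP lungs, against 7.42 to 27.4 on all other arrays. Those other values are below the array medians of 31.1 to 38.4. Ikbke thus passed the filter only through the group where it is high, and its call, among the 5 above, is no separate support. Traf6, the ubiquitin ligase downstream of Irak kinases, was lower in knockout-labelled than in wild-type lungs after sham, a log2 difference of -1.17 ± 0.25 (adjusted p = 0.011). It responded to CLP by 0.71 ± 0.25 in knockout-labelled lungs (adjusted p = 0.048), a call lost in 9 of 12 runs without 1 array (adjusted p up to 0.15, without knockout-labelled CLP array 2). Traf6 read 71.8 on knockout-labelled sham array 3, against 160 and 154 on sham arrays 1 and 2. Without array 3 the response was 0.35 (adjusted p = 0.098) and the difference after sham was -0.81 (adjusted p = 0.0052).

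Of 7 inhibitors 3 were called higher and 1 lower after CLP in knockout-labelled lungs, beside 10.4% of all probe sets higher and 18.8% lower, and 1 was higher in wild-type lungs, beside 0.814%. Tnfaip3 (A20), which removes ubiquitin from this pathway, responded by 2.63 ± 0.38 in knockout-labelled lungs (adjusted p = 5.5e-04) and 2.13 ± 0.38 in wild-type lungs (adjusted p = 0.019). Its binding partner Tnip1 responded by 1.64 ± 0.23 in knockout-labelled lungs (adjusted p = 5.1e-04), and 0.75 ± 0.23 in wild-type lungs (adjusted p = 0.24). Tnip1 was also higher in knockout-labelled than in wild-type lungs after sham by 0.89 ± 0.23 (adjusted p = 0.032), a call lost in 5 of 12 runs (adjusted p up to 0.13, without wild-type sham array 2). The wild-type responses of Map3k8 and Tnfaip3 were lost in 5 and in 6 of 12 runs without 1 array (adjusted p up to 0.11 without wild-type CLP array 1 and up to 0.10 without wild-type CLP array 3). Of the transcription factors, Irf5 was higher in knockout-labelled lungs after sham by 0.65 ± 0.15 (adjusted p = 0.019), lost without wild-type sham array 2 or 3 (adjusted p up to 0.077).

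Casp4 (caspase-11 in mouse), which binds endotoxin in the cytosol, was the gene nearest to Irak3 by profile. It read 644, 1294 and 1591 in knockout-labelled CLP lungs and 153, 131 and 187 in knockout-labelled sham lungs, against 179, 161 and 191 in wild-type CLP lungs and 99.98, 107 and 125 in wild-type sham lungs. No other array reached the 3 knockout-labelled CLP arrays. Casp4 responded by 2.79 ± 0.26 in knockout-labelled lungs (adjusted p = 5.3e-05) and by 0.67 ± 0.26 in wild-type lungs (adjusted p = 0.44). Pycard (ASC), which joins inflammasome sensors to Casp1, was higher in knockout-labelled than in wild-type lungs by 2.03 ± 0.20 after CLP (adjusted p = 2.5e-05) and by 1.30 ± 0.20 after sham (adjusted p = 0.0012). Casp1 itself was higher by 1.66 ± 0.26 after CLP (adjusted p = 7.1e-04). Nlrp3, an inflammasome sensor, went the other way: it was lower in knockout-labelled than in wild-type lungs after CLP, a log2 difference of -1.22 ± 0.28 (adjusted p = 0.0061). It responded to CLP by 1.34 ± 0.28 in wild-type lungs (adjusted p = 0.042), a call lost in 8 of 12 runs without 1 array (adjusted p up to 0.22, without wild-type sham array 1).

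**Figure D5:**
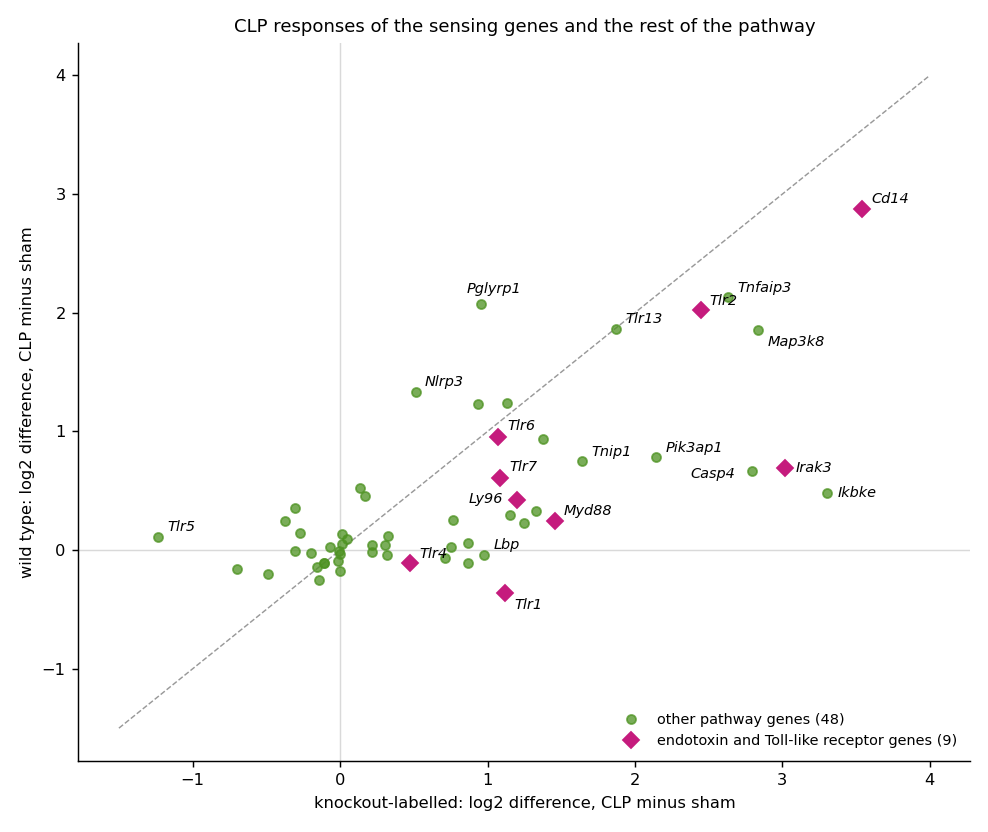
Log2 difference between CLP and sham in knockout-labelled lungs (horizontal axis) and wild-type lungs (vertical axis) for the 9 endotoxin and Toll-like receptor genes and the 48 other pathway genes tested, with a dashed line at equal responses. Cd14, Tlr2, Tlr13, Tnfaip3 and Map3k8 lie at 1.86 or more on both axes, Irak3, Casp4 and Ikbke lie far to the right at 0.69 or less on the vertical axis, and Pglyrp1 and Nlrp3 lie above the line. Ikbke passed the filter only through the knockout-labelled CLP arrays.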

How the data were processed

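Total RNA from whole lung was measured on 12 Affymetrix 3-prime arrays, 3 per group. The authors deposited linear signal intensities per probe set. GCOS, MAS5 and the Affymetrix Expression Console are named, per the submitters' processing notes, without versions or roles. The trimmed mean without the 2% lowest and 2% highest signals was 150.001 on every array, so intensities had been scaled to a common target. No detection calls were used here, and the number of arrays limits the precision. The 64 control probe sets were removed from 45101, leaving 45037. The analysis used log2 of the signal plus 3.47 (10% of the median array median of 34.7). The 24574 probe sets whose signal passed the median of its array at least 3 times in 12 were tested, and all 9 measured genes passed, each also through arrays outside the knockout-labelled CLP group.

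One limma 3.58.1 model (R 4.3.3, eBayes with intensity trend) held 4 group means. The 4 groups shared 1 estimate of the spread per probe set, so a gene's SE is the same in both genotypes. The groups themselves differed in spread. For Myd88 the SD of log2 values was 0.50 and 0.05 in knockout-labelled CLP and sham lungs, and 0.14 and 0.09 in wild-type CLP and sham lungs. P-values were adjusted by Benjamini-Hochberg over all tested probe sets in each comparison, with calls under 0.05. The fit was tested on simulated data. The genes, lists, markers and rules were chosen with earlier results of these data known. All 9 genes are named. Other pathway genes are named if called in the wild-type response or in the difference of responses, or among the 6 smallest p of the other comparisons. For each gene called for CLP, the 2 genes nearest to it are given. Promoter sequences are from RefSeq (GRCm38.p6), and 5 of 9 genes matched by symbol. Replicate numbers were not used as pairs in the main fit: of 18 same-number pairs, 2 had correlated deviations over 0.1 (range -0.10 to 0.12). Pairs of different numbers were not compared, so whether the numbers pair the samples was not tested. Alternatives were quantile normalization, median centring, a 50% pseudocount, no filter or one of 9 arrays, no trend, array weights, a replicate block, the compared groups alone, averaged probe sets per gene, and leaving out 1 array at a time.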

Additional observations from a re-analysis of the deposited data

Results flagged for a closer look

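The response to CLP differed between the genotype labels by a test of that difference (limma interaction, 3 arrays per group) for 1 of the 9 measured sensing genes and 4 of the 48 other pathway genes, 11.1% and 8.33%, beside 4.05% of all probe sets in either direction. For Myd88 the response of knockout-labelled lungs exceeded that of wild-type lungs by 1.21 ± 0.26 on the log2 scale (adjusted p = 0.030), with all 3 knockout-labelled CLP arrays above the 9 others. This call was kept in 3 of 12 runs that left out 1 array, with an adjusted p of up to 0.091 without wild-type CLP array 2.

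For Casp4 the excess was 2.13 ± 0.37 (adjusted p = 0.014), lost without wild-type CLP array 2 (adjusted p = 0.054) and kept in the other 11 runs that left out 1 array. For Lbp it was 1.02 ± 0.23 (adjusted p = 0.032), kept in 5 of 12 such runs, with an adjusted p of up to 0.094 without wild-type CLP array 2.

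The responses of Tlr5 and Pglyrp1 differed in the other direction. For Tlr5 the difference was -1.35 ± 0.34 (adjusted p = 0.045), kept in 2 of 12 runs, with an adjusted p of up to 0.11 without wild-type sham array 1. For Pglyrp1 it was -1.11 ± 0.22 (adjusted p = 0.024), kept in 6 of 12 runs, with an adjusted p of up to 0.071 without wild-type CLP array 2. Pglyrp1 rose in both genotypes, by 0.96 ± 0.16 in knockout-labelled lungs (adjusted p = 0.0012) and 2.07 ± 0.16 in wild-type lungs (adjusted p = 4.6e-05).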

How the results depend on the processing

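The difference of the CLP responses was the comparison most open to the processing. Of the 9 sensing genes 1 was called in it, against 2 with median centring, a 50% pseudocount, a filter of 9 arrays, the replicate block or the mean of probe sets (Irak3 was gained in each, with an adjusted p of 0.043 under the block), 6 with array weights, and 0 to 3 with 1 array left out. Of the 48 other pathway genes 4 were called in it, against 16 with array weights and 0 to 12 with 1 array left out. After sham the genotype labels differed in 1 sensing gene, against 2 with array weights and 0 to 2 with 1 array left out, and in 5 other genes, against 11 with array weights, 3 with the compared groups alone and 2 to 6 with 1 array left out. After CLP they differed in 7 sensing genes (6 to 8 with 1 array left out) and 19 other genes (12 to 23). The knockout-labelled response to CLP held 8 sensing genes (7 to 9, and 6 with the compared groups alone, where Ly96 and Tlr1 were lost) and 23 other genes, against 13 with the compared groups alone and 15 to 24 with 1 array left out. The wild-type response held 3 sensing genes (2 to 3) and 5 other genes, against 13 with array weights, 12 with the compared groups alone and 1 to 6 with 1 array left out. The replicate block changed no other count of sensing genes.

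In all, 5 values changed sign: with the mean of probe sets Tlr4 in the wild-type response (0.031) and Tlr7 in the difference of responses (-0.028), after CLP (-0.14) and after sham (-0.11), and Tlr6 in the difference of responses without wild-type CLP array 3 (-0.016, within -0.016 to 0.29 over the 12 arrays left out in turn). Of these, Tlr7 after CLP had been called. The cause of these changes was not tested. The difference of responses was not fitted with the compared groups alone, since it needs all 4.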
